A study of Mus musculus with 9 samples.

Results

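Peaks of open chromatin were described around 9 coactivator genes, Crebbp, Ep300, Taf12, Kmt2a, Men1, Psip1, Kat2a, Kat6a and Med1, out of 21887 protein-coding genes. The genes were listed by name because their proteins work with the transactivation domain of the transcription factor MYB or with the enhancer machinery, and every peak within 1 kb of either gene end or within 50 kb of the gene was taken. All 9 genes had at least 1 peak within 50 kb in every library.

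The data were ATAC-seq libraries, in which the Tn5 transposase cuts and tags accessible DNA, from mouse E14 embryonic stem cells of the variant TOT2N. The WT line is labelled wild type, and the titles do not say what the variant TOT2N carries. Another line had a stably integrated TetR construct, and the last had a stably integrated TetR-MYBTA construct. The TetR protein binds DNA and belongs to a bacterial tetracycline switch. By its title, the series concerns sustained MYB activity, enhancers and their contacts with promoters. Each line had 3 libraries. The labels give no promoter, clone or expression level for either construct and do not say whether libraries came from separate cultures, so the spread behind each p-value may be technical.

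The transactivation domain of MYB binds the KIX domain of CREBBP and of its relative EP300, acetyltransferases that mark active enhancers, and TAF12 is another coactivator linked to MYB. KMT2A, the founding MLL methyltransferase, works in a complex with menin, the product of Men1, and LEDGF, the product of Psip1. KAT2A and KAT6A are further acetyltransferases, and MED1 is a subunit of Mediator, which connects enhancer-bound factors to RNA polymerase II. These genes serve most cell types, embryonic stem cells included.

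The deposited lists held 45136 to 70230 peaks, called from 16.4 M to 23.0 M tags, and TetR-MYBTA replicate 3 had the shortest list and the lowest share of tags in peaks (5.48%, against 7.44 to 9.78% in the others). In bulk libraries, a site open in fewer cells and a weaker signal per cell cannot be told apart, and a site without a peak may still be open below the calling threshold. Of 8 stem cell markers, 2 to 5 had a gene-end peak in a library, with Sox2 and Klf4 in all 9 libraries and Esrrb and Zfp42 in none. Gene-end peaks were also called at 0 to 1 of 3 primitive endoderm markers, 0 to 3 of 3 trophoblast markers, 1 to 3 of 3 fibroblast markers and 1 of 3 blood markers (Spi1, in every library). TetR-MYBTA replicate 3 had the fewest stem cell markers with a peak (2) and none of the trophoblast or endoderm ones, and the part of this in the results below was not tested.

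Start regions of the genes are shown because gene-end regions met the stretches printed below. Of the 9 genes, 7 had a RefSeq promoter window (GRCm38.p6, 250 bases before to 50 after the start), and the stretch outside the annotated gene is printed for 5 of them, 5′ to 3′ on the gene's strand. The windows of Crebbp and Med1 lay inside the annotated gene and are not printed. Capitals mark bases inside a region where a peak was called in at least 1 library. The stretches are chr15:81585964-81586208 (+) for Ep300, chr4:132274125-132274354 (+) for Taf12, chr9:44881353-44881539 (-) for Kmt2a, chr19:6334729-6334978 (+) for Men1 and chr11:100712486-100712717 (-) for Kat2a.

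Ep300: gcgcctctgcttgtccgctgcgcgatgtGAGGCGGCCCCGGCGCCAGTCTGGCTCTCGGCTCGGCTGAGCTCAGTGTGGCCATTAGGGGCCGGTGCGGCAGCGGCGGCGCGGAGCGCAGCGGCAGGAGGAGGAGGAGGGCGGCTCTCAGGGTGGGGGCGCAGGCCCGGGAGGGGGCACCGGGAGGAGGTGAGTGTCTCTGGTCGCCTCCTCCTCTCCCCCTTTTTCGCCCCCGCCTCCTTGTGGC
Taf12: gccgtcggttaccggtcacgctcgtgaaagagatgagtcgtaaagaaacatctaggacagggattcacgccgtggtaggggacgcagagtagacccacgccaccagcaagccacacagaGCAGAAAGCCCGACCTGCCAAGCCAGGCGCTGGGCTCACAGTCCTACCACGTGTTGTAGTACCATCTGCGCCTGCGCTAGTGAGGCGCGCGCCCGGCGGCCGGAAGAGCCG
Kmt2a: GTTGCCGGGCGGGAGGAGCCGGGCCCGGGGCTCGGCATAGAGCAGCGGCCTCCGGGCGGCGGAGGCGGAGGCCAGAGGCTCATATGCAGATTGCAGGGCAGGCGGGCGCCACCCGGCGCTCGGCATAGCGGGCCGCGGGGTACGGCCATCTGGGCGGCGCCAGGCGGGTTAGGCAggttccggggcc
Men1: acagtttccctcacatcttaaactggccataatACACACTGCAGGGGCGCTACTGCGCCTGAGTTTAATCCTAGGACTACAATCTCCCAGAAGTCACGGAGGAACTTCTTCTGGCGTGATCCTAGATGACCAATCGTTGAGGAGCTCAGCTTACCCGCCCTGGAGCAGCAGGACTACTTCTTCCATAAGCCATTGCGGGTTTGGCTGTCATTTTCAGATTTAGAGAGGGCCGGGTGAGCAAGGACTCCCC
Kat2a: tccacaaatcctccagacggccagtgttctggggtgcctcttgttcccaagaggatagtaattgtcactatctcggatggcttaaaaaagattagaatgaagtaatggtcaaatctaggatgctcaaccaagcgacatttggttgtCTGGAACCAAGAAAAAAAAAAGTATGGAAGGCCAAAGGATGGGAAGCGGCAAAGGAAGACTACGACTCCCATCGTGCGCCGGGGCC

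The stretches of Taf12, Kmt2a and Men1 met regions with a peak in all 9 libraries, that of Ep300 met a region with a peak in 4 libraries, and that of Kat2a met a region with a peak in 2. G and C made up 77.0% of the Kmt2a stretch, 73.9% of Ep300, 62.6% of Taf12, 52.0% of Men1 and 47.4% of Kat2a. Kat2a, with a peak in the fewest libraries, had the least G and C. Ep300, with a peak in 4 libraries, had more G and C than Taf12 and Men1, with a peak in all 9. In the 7 full windows, searched on both strands, the GC box GGGCGG was found in 5 (Crebbp, Ep300, Kmt2a, Men1 and Med1), against 35.9% of 27025 RefSeq promoter windows. Taf12, which lacked it, held the NRF1 motif, GCGC followed by any base and TGCGC (4.78% of windows), and the ETS motif CCGGAAG (9.12%). CCAAT was in Men1 and Med1 (37.9%), and the CRE motif TGACGTCA was in no member window (1.88%). The MYB-type hexamer TAACNG was in the Taf12 window (23.2%) and CAACNG in those of Crebbp and Kat2a (35.1%). The 2 hexamers share the letters AACNG and cannot match at the same place.

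Most of the coactivator genes had open chromatin at a gene end in every library of every line. A gene-end peak was called in all 9 libraries at 7 of 9 genes (77.8%), Crebbp, Ep300, Taf12, Kmt2a, Men1, Psip1 and Med1, against 44.2% of all protein-coding genes. Kat2a had one in 2 of 9 libraries and Kat6a in none. Among 78 related genes of the same complexes, 55 (70.5%) had a gene-end peak in all 9 libraries, 14 in some and 9 in none, so the coactivator genes stood close to their relatives. Presence at the gene ends did not separate the lines at any of the 9 genes: none had a peak in all libraries of one side and no library of the other.

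For TetR-MYBTA against the other 6 libraries, 0.0731% of all genes had a gene-end peak on the TetR-MYBTA side only and 0.557% on the other side only. The same shares were 0.196% and 1.38% against TetR, 0.164% and 1.3% against WT, and 0.393% and 0.315% for TetR against WT. A count of 0 among 9 genes is close to these shares. The related list held 3 such genes. Brd1, whose product is a subunit of the MOZ-type acetyltransferase complexes, had a gene-end peak in all 6 TetR and WT libraries and in no TetR-MYBTA library. Supt7l, a SAGA subunit gene, had one in 3 WT, 2 TetR and 0 TetR-MYBTA libraries, and Kat6b, the closest relative of Kat6a, in 2 WT, 3 TetR and 0 TetR-MYBTA libraries.

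**Figure D1:**
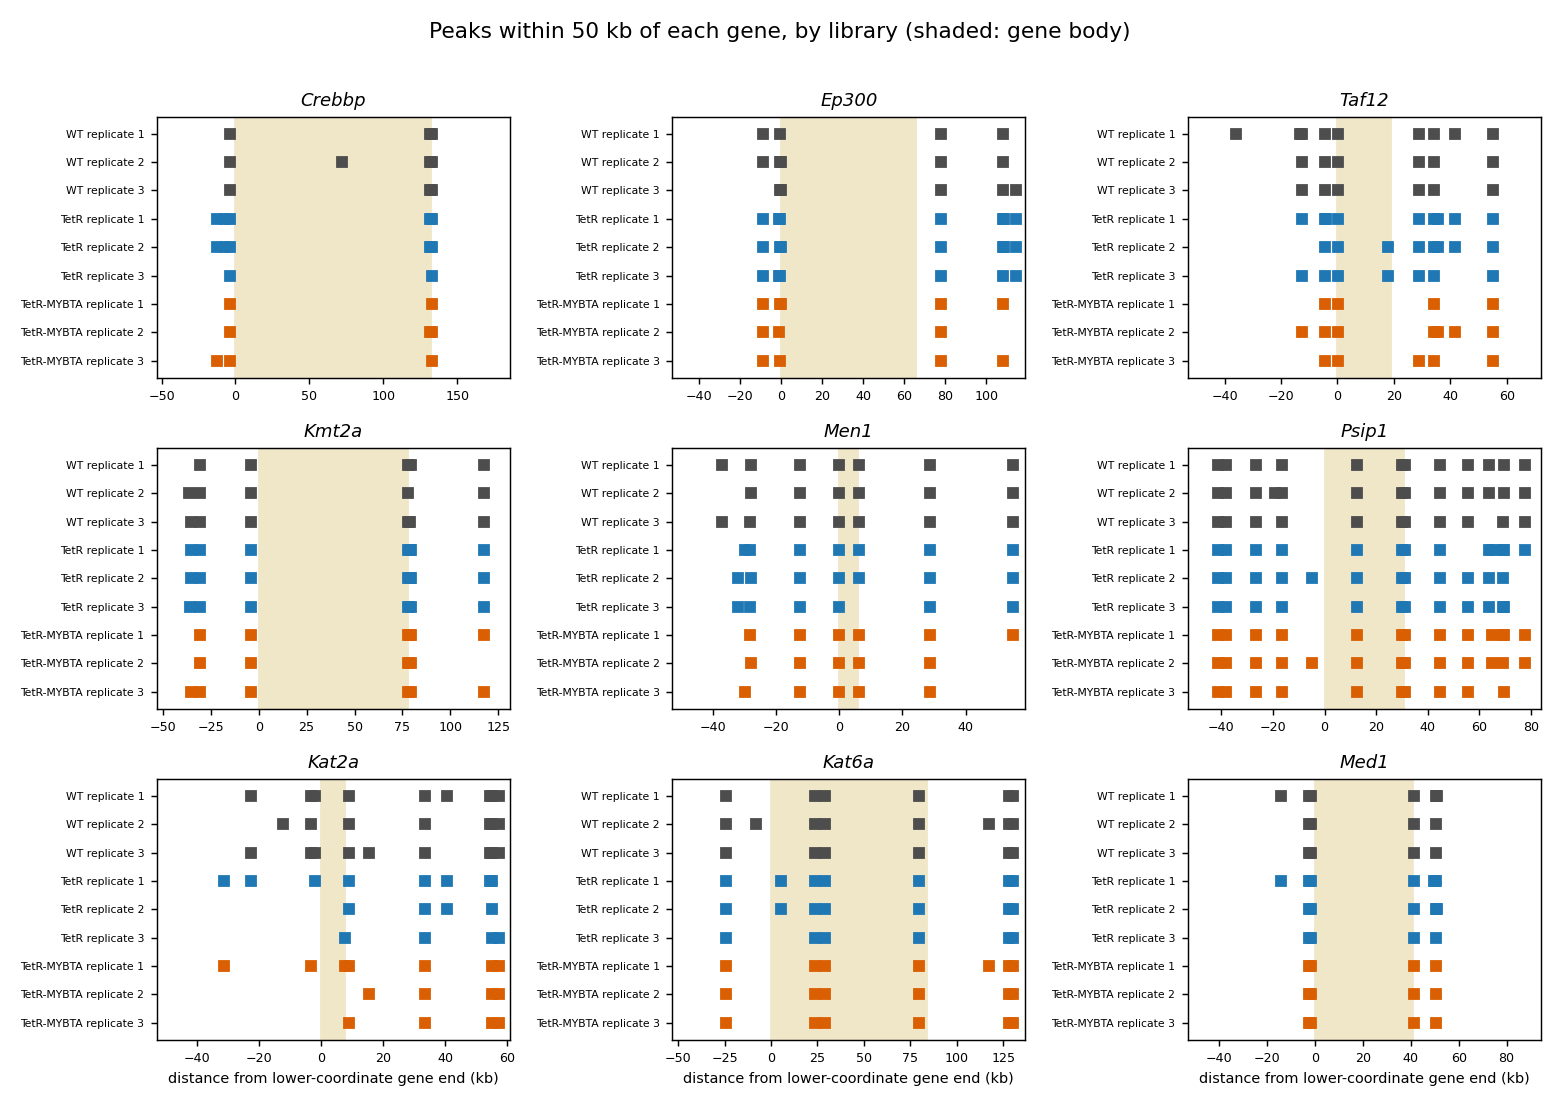
Each panel is 1 gene, with the distance from the gene's lower-coordinate end in kb on the horizontal axis, 1 row per library and 1 square per union region with a peak in that library; the gene body is shaded. At 7 genes every library has a square at a gene end, in adjoining regions at Ep300, while Kat2a has 2 squares at its upper end and Kat6a has none at its ends, with 3 of its full columns inside the gene and 3 outside.

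Peaks were also counted as union regions, formed by peaks that overlapped by at least 1 bp in any library. Within 50 kb of the 9 genes lay 93 union regions out of 116362, given as above or below a gene where their coordinates are higher or lower. Of these, 33 (35.5%) had a peak in all 9 libraries, against 23.4% of the regions within 50 kb of any protein-coding gene, and 13 (14%) had a peak in 1 library only, against 24.7%. At the genes' own ends lay 14 regions, 7 of them with a peak in all 9 libraries. Inside the genes lay 7 regions (4 in all 9), at ends of neighbouring genes 27 (8 in all 9), inside neighbouring genes 28 (9 in all 9) and between genes 17 (5 in all 9). Psip1 had the most regions (16) and Crebbp the fewest (6). The share found in all 9 libraries ran from 11.1% at Ep300 to 66.7% at Kat6a, as the map of peaks around each gene shows.

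No union region near a coactivator gene was private to TetR-MYBTA or missing from it alone: among 93 regions, 0 were called in every TetR-MYBTA library but in no other library, or the reverse. Of all union regions, 0.587% and 1.16% did so. Against TetR, 1 region had a peak in all TetR and no TetR-MYBTA library (4.43% of all regions), and 0 were the other way round (1.4%). It lay between genes, 32.7 kb above Psip1 (chr4:83519159-83519463), with a peak in WT replicates 1 and 2, all 3 TetR and no TetR-MYBTA library. For TetR against WT, 1 region had a peak in all WT and no TetR library (1.37%), and 0 were the other way round (2.26%). It lay inside Dhx58, 3.13 kb below Kat2a (chr11:100701367-100701614), and TetR-MYBTA replicate 1 had a peak there too. Against WT, TetR-MYBTA had 0 such regions (1.23% gained and 2.79% lost over all regions). Neither region kept its call when a peak of the absent libraries within 1 kb was not allowed, and both counts were below the background shares.

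Crebbp and Ep300, which encode the KIX-domain acetyltransferases, and Taf12 differed in how their gene ends were covered. A region 0.047 kb above the upper end of Crebbp (chr16:4214004-4214502), outside its promoter window, had a peak in all 9 libraries. A second region inside the gene (chr16:4213067-4213477) met the promoter window (chr16:4213355-4213654). It had a peak in 3 WT, 2 TetR and 1 TetR-MYBTA libraries. At Ep300 no single gene-end region was common to all 9 libraries, and the gene-end peaks fell in 3 adjoining regions. The one at chr15:81585330-81585803 had a peak in every library except TetR-MYBTA replicate 2. The one at chr15:81585014-81585294 had a peak in TetR replicates 1 and 3 and TetR-MYBTA replicate 2. The one over the start (chr15:81585992-81586296), printed above in capitals, had a peak in WT replicates 2 and 3, TetR replicate 2 and TetR-MYBTA replicate 1. Taf12 had 1 gene-end region, over its start (chr4:132274244-132274556), in all 9 libraries.

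A peak list carries no signal per peak here, since its score is 1 in every row, but its row order holds a ranking. Rows ran in 268 to 375 blocks per list, and within a block peaks followed chromosome and position, so every peak of a block was given the block's mean row. The files do not state the value behind the blocks. Each list was reduced to the 26020 regions that had a peak in every library, and these were ranked. A region's place is its percentile among them, where 100 is the first, and not its position in the full list.

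The Crebbp gene-end region stood near the end of these ranked regions in TetR-MYBTA. In the full lists its percentile was 61.6, 50.7 and 56.8 in WT, 61.7, 44.8 and 40.2 in TetR, and 34.1, 6.92 and 6.93 in TetR-MYBTA. Its place was 32.6, 15.1 and 24.1 in WT, 23.6, 11.1 and 12.4 in TetR, and 7.48, 0.778 and 2.29 in TetR-MYBTA. TetR-MYBTA lay below the other 6 libraries without overlap, with a mean of 3.52 ± 3.52 (SD, n = 3) against 19.8 ± 8.37 (SD, n = 6; two-sided exact permutation p = 0.0238, Benjamini-Hochberg adjusted p = 0.113 over 26020 regions). Over all regions at a gene end, 10.4% lay lower in TetR-MYBTA without overlap and 5.36% higher. The Taf12 gene-end region had places of 63.5, 57.1 and 61.2 in WT, 50, 45.7 and 36.6 in TetR, and 21.8, 16.8 and 36.6 in TetR-MYBTA. WT lay above the other 2 lines without overlap, and TetR-MYBTA touched TetR at 36.6. TetR-MYBTA against the other 6 libraries gave 25.1 ± 10.3 (SD, n = 3) against 52.3 ± 10.2 (SD, n = 6; exact permutation p = 0.0238, adjusted p = 0.113). Near Ep300 the only region in all 9 libraries was at an end of L3mbtl2, with overlapping means of 54.1 ± 12.6, 45.7 ± 6.12 and 45.4 ± 13.9 in WT, TetR and TetR-MYBTA (SD, n = 3 each).

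Kmt2a, Men1 and Psip1 encode the methyltransferase, the menin scaffold and the chromatin-binding LEDGF of 1 complex. WT stood above both other lines at a gene-end region of Kmt2a and of Men1, while the lines overlapped at Psip1. The Kmt2a region 0.013 kb above the gene (chr9:44881365-44881618) showed the widest gap between lines among the 7 gene-end regions in all 9 libraries. Its place was 61.8, 62.3 and 67.3 in WT, 21.0, 7.87 and 6.23 in TetR, and 46.5, 31.8 and 16.9 in TetR-MYBTA. WT lay above both other lines without overlap, and TetR and TetR-MYBTA overlapped, with means of 63.8 ± 3.03, 11.7 ± 8.08 and 31.7 ± 14.8 (SD, n = 3 each). With 3 against 3 libraries the smallest possible p is 0.10. A second Kmt2a region 0.757 kb above the gene (chr9:44882109-44882330) had a peak in 1 WT, 2 TetR and 1 TetR-MYBTA libraries.

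The Men1 region over its start (chr19:6334762-6335090) had places of 63.5, 71.8 and 72.2 in WT, 40.7, 44.6 and 48.5 in TetR, and 40.7, 56.8 and 56.5 in TetR-MYBTA. WT again lay above both other lines without overlap. The region at the other end of Men1 (chr19:6340948-6341255), shared with an end of Map4k2, had a peak in every library except TetR replicate 3. Psip1 had a pair of regions at its upper end, each with a peak in all 9 libraries. The inner one (chr4:83485742-83485976) had mean places of 55.9 ± 11.9 in WT, 60.2 ± 8.12 in TetR and 61.0 ± 14.5 in TetR-MYBTA. The outer one (chr4:83486574-83486847) had 68.7 ± 16.2, 74.5 ± 2.54 and 66.2 ± 20.5 (SD, n = 3 each). The lines overlapped at both Psip1 regions.

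The acetyltransferase genes Kat2a and Kat6a were the ones without constant gene-end peaks. The Kat2a region over its start (chr11:100712359-100712571) had a peak in TetR replicate 3 and TetR-MYBTA replicate 1. Just outside the 1 kb limit, 1.00 kb above the gene at an end of Hspb9, a region (chr11:100713487-100713986, named after its values were seen) had a peak in 7 libraries, all except TetR replicate 3 and TetR-MYBTA replicate 2. With gene ends widened to 2.5 kb, Kat2a still lacked a peak in at least 1 library, and the count of genes with a gene-end peak in all 9 stayed at 7. Kat6a had no gene-end peak in any library, but 3 regions inside the gene had a peak in all 9. Their centres lay 23.9, 28.8 and 79.9 kb from its lower end, and the other inside region had a peak in TetR replicates 1 and 2 only.

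In TetR, 2 of the 3 constant regions inside Kat6a had higher places. The first had places of 42.3, 21.5 and 14.9 in WT, 59.6, 67.2 and 58.0 in TetR, and 34.4, 43.2 and 50.7 in TetR-MYBTA, and the last had 23.4, 18.8 and 20.2, then 42.9, 53.9 and 50.7, then 25.6, 40.2 and 3.98. At both, TetR lay above WT and above TetR-MYBTA without overlap, while WT and TetR-MYBTA overlapped. The middle one overlapped between all lines, with means of 15.6 ± 14.8, 24.1 ± 11.7 and 12.1 ± 5.70 (SD, n = 3 each). Between genes, 24.2 kb below Kat6a, a region stood at 43.6, 39.9 and 34.5 in WT, 35.1, 36.3 and 26.2 in TetR, and 20.2, 13.3 and 12.3 in TetR-MYBTA. TetR-MYBTA lay below the other 6 there, at 15.3 ± 4.29 (SD, n = 3) against 35.9 ± 5.85 (SD, n = 6; exact permutation p = 0.0119, the smallest that 3 against 6 allows; adjusted p = 0.0826).

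Med1, which encodes the Mediator subunit that meets nuclear receptors, had 1 gene-end region, over its upper end (chr11:98193225-98193471), in all 9 libraries. Its place was 76.2, 62.9 and 64.6 in WT, 40.7, 46.8 and 51.8 in TetR, and 71.7, 76.9 and 86.8 in TetR-MYBTA. TetR lay below both other lines without overlap, and WT and TetR-MYBTA overlapped. TetR-MYBTA against the other 6 libraries, which overlapped, gave 78.5 ± 7.68 (SD, n = 3) against 57.2 ± 13.1 (SD, n = 6; exact permutation p = 0.0357, adjusted p = 0.139). Med1 lies on chromosome 11, which held 5.90 ± 0.0771% of WT peaks, 5.54 ± 0.00583% of TetR peaks and 7.34 ± 0.192% of TetR-MYBTA peaks (SD, n = 3 each). Of the 1721 regions on that chromosome with a peak in all 9 libraries, 56.9% stood higher in TetR-MYBTA than in TetR without overlap and 2.5% lower. The 2 such regions near Kat2a, on the same chromosome, did so too, and the part of the chromosome in these places was not tested.

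**Figure D2:**
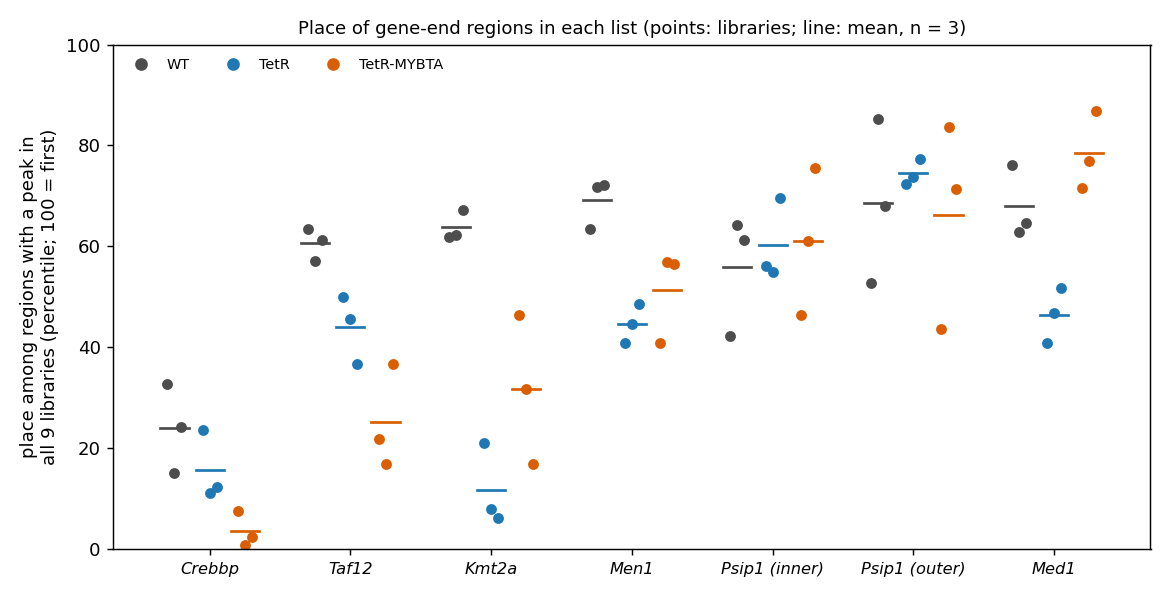
Place of the 7 gene-end regions with a peak in all 9 libraries, by gene (horizontal axis). The vertical axis is the percentile among all regions with a peak in all 9 libraries, where 100 is the first. Points are libraries and lines are means of 3. TetR points lie below WT points at Taf12, Kmt2a, Men1 and Med1, TetR-MYBTA points lie lowest at Crebbp, and the lines overlap at both Psip1 regions.

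Of the 7 gene-end regions with a peak in all 9 libraries, 4 stood lower in TetR than in WT without overlap (Kmt2a, Med1, Men1 and Taf12) and 0 higher, against 29% lower and 11.4% higher over 7928 such regions at gene ends. Lower in TetR-MYBTA than in WT were 4 (Crebbp, Kmt2a, Men1 and Taf12) and higher 0, against 33.1% and 9.69%. On chromosome 19, which carries Men1, 41.4% of the 541 regions with a peak in all 9 libraries stood lower in TetR-MYBTA than in WT and 3.51% higher, and on chromosome 9, which carries Kmt2a, 32.3% and 13.8%; the part of the chromosome was not tested. Between TetR-MYBTA and TetR, 1 was higher (Med1, against 13.6%) and 1 lower (Crebbp, against 18.7%). These comparisons share libraries, and gene-end regions as a whole stood lower more often than higher in both other lines against WT.

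Among all 33 regions near the coactivator genes with a peak in all 9 libraries, 1 stood higher in TetR-MYBTA than in the other 6 without overlap (11.7% of all 26020 regions) and 2 lower (8.95%). The higher one lay between genes, 14 kb above Psip1, at 67.6 ± 1.72 (SD, n = 3) against 48.2 ± 14.2 (SD, n = 6; exact permutation p = 0.0476, adjusted p = 0.161), and the lower ones were those at Crebbp and below Kat6a. Against TetR, 8 were higher (19.7%) and 6 lower (19.5%), with 3 of the 8 near Med1 and 4 of the 6 near Kat6a. For TetR against WT, 5 were higher (18.5%) and 12 lower (19.7%), and for TetR-MYBTA against WT, 2 higher (20.2%) and 10 lower (21.6%). No region of 26020 passed an adjusted p of 0.05 in the exact permutation test in any comparison, while 29.5% had an unadjusted p under 0.05 for TetR-MYBTA against the other 6. Without TetR-MYBTA replicate 3 the count of 3 against the other 6 became 8, and that of 12 against WT became 20. It became 5 against the other 6 without WT replicate 1, TetR replicate 3 or TetR-MYBTA replicate 1. Leaving out a library can also only add calls over all 26020 regions, so the shares above do not apply to these counts.

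**Figure D3:**
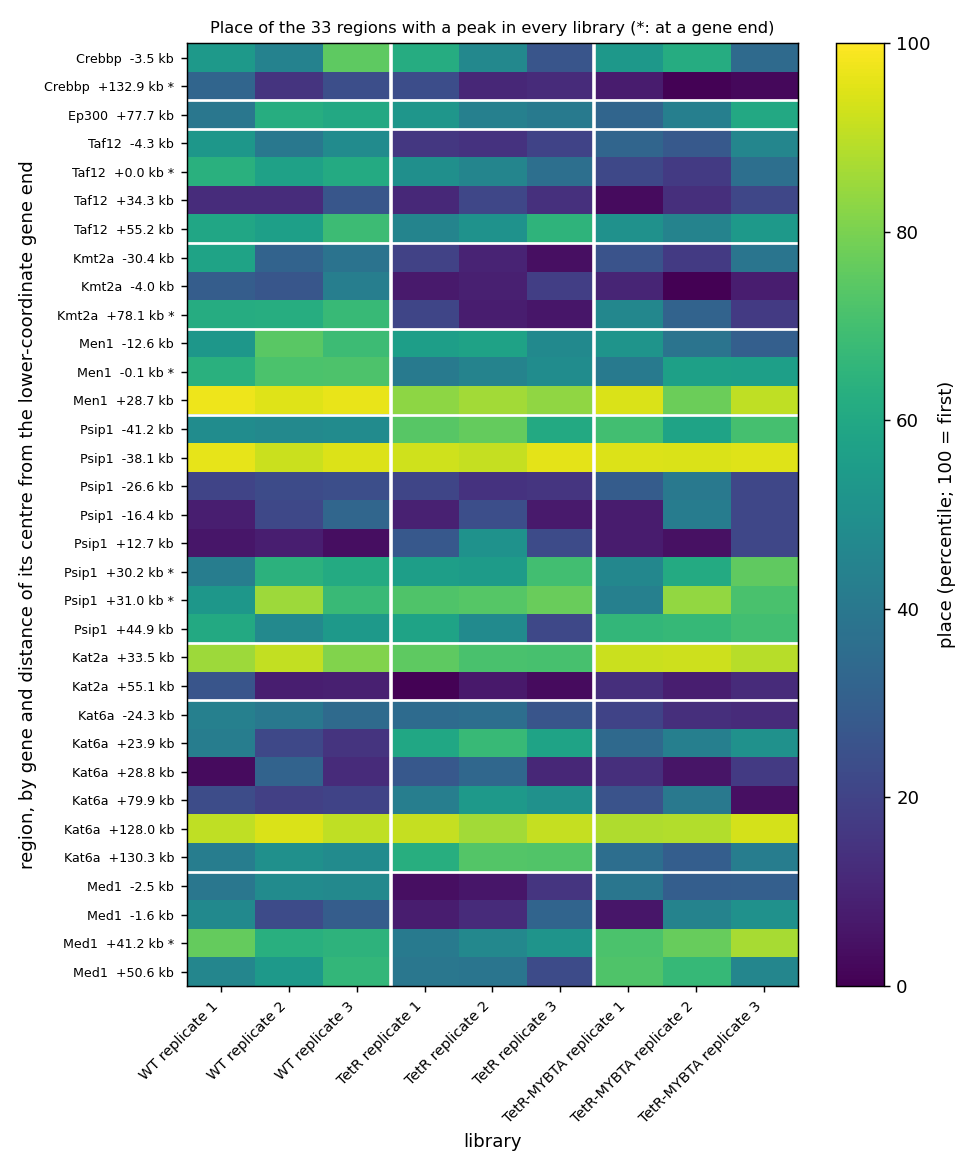
Place (colour) of the 33 regions near the genes with a peak in all 9 libraries. Place is the percentile among all regions with a peak in all 9 libraries, where 100 is the first. Rows are ordered by gene and distance of the region's centre from the lower-coordinate gene end. Libraries are in columns and gene-end regions are starred. The 2 outermost Kat6a regions inside the gene are brighter in TetR, and the Kmt2a rows are darkest in TetR or TetR-MYBTA.

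The number of peaks within 50 kb of a gene was set against the length of each list, as peaks per 100000 peaks of the library. Only Psip1 separated TetR-MYBTA from all other libraries. Its share was 21.2, 20.6 and 18.5 in WT, 18.5, 18.2 and 20.4 in TetR, and 21.8, 22.8 and 22.2 in TetR-MYBTA. TetR-MYBTA was higher in all 3 libraries, at 22.3 ± 0.536 (SD, n = 3) against 19.6 ± 1.32 (SD, n = 6), a ratio of 1.14 (exact permutation p = 0.0238, adjusted p = 0.150 over 20443 genes). Without overlap, 4.47% of all genes were higher in TetR-MYBTA and 10.2% lower, so 1 higher and 0 lower of 9 is close to the background. The counts behind it differed by less than their spread: WT had 12 ± 1.00 peaks, TetR 12.3 ± 0.577 and TetR-MYBTA 12 ± 1.73 (SD, n = 3 each). The Psip1 groups overlapped with a window of 10 kb, the upper 50% of each list and lists of equal length, at log2 ratios of 0.29, 0.23 and 0.11 in place of 0.19.

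Ep300 separated TetR from both other lines. Its share was 7.07, 7.92 and 8.39 in WT, 9.97, 10.6 and 10.2 in TetR, and 8.38, 5.27 and 8.86 in TetR-MYBTA. TetR stood above WT by a ratio of 1.32, and TetR-MYBTA below TetR by a ratio of 0.731, with no overlap in either case. Counted as peaks, Ep300 had 4 to 5 in WT, 6 to 7 in TetR and 3 to 5 in TetR-MYBTA. Both separations were lost with a 10 kb window, with equal list lengths and in the upper 50% of the rows, and TetR against WT also with whole blocks of rows; in the upper 50% the TetR against WT difference turned, to -0.47 on the log2 scale from 0.40. Ep300 and Psip1 were the 2 genes called in TetR-MYBTA against TetR, 1 lower (17.8% of all genes) and 1 higher (10.1%). For TetR against WT, Ep300 was the 1 gene called, higher (8.57%; 11.4% were lower), and for TetR-MYBTA against WT it was Psip1, higher (7.83%; 20% were lower).

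Kat2a had the most uneven counts. It had 9, 7 and 9 peaks in WT, 8, 4 and 4 in TetR, and 7, 4 and 4 in TetR-MYBTA. Its share was 14 ± 2.58 in WT, 8.09 ± 2.88 in TetR and 9.21 ± 2.37 in TetR-MYBTA (SD, n = 3 each). Replicate 1 of each TetR line overlapped WT, so neither line was called against WT. With lists of equal length TetR fell below WT without overlap, at a ratio of 0.333.

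The other 6 genes overlapped between lines in every comparison. Mean shares in WT, TetR and TetR-MYBTA were 5.56, 6.03 and 5.09 for Crebbp, 11.8, 12.3 and 10 for Taf12, and 8.94, 10.3 and 10.1 for Kmt2a. They were 11.2, 10.3 and 9.97 for Men1, 11.1, 10.3 and 11.9 for Kat6a, and 7.88, 7.64 and 7.53 for Med1. Their ratios of TetR-MYBTA to the other 6 libraries ran from 0.832 (Taf12) to 1.11 (Kat6a), with exact permutation p from 0.238 to 0.869. Med1 had 4 peaks in each TetR-MYBTA library and 4 to 6 in the others.

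**Figure D4:**
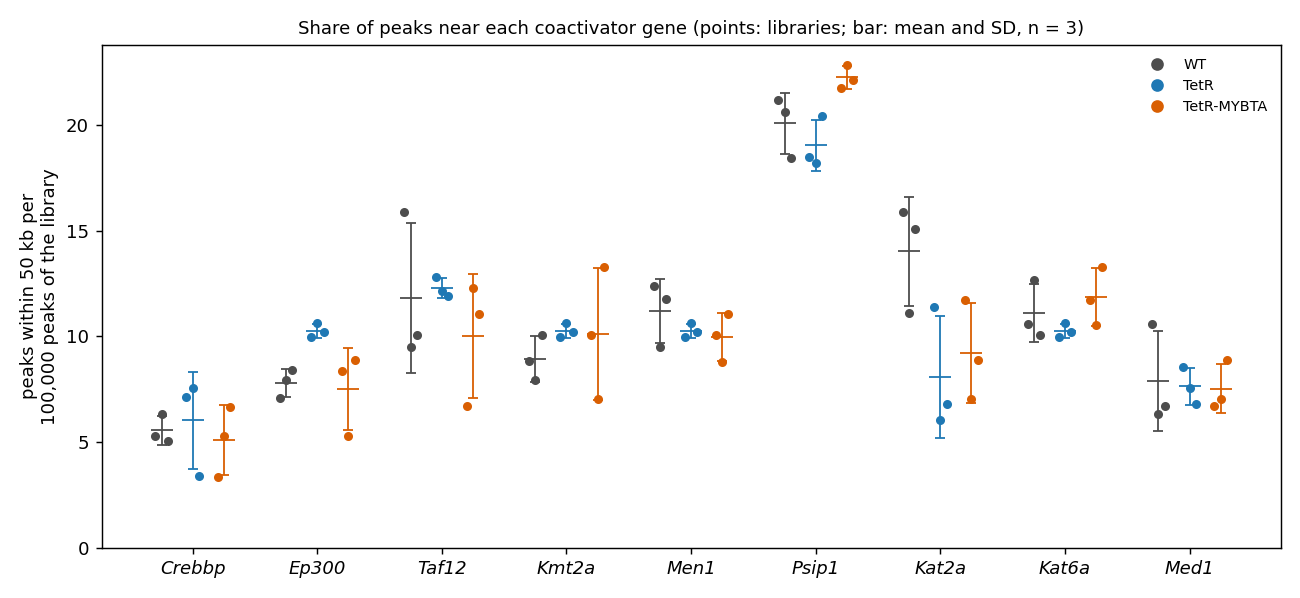
Peaks within 50 kb per 100000 peaks of the library (vertical axis) for each gene (horizontal axis); points are libraries, and bars are the mean and SD of 3 libraries per line. Psip1 has the highest shares, with TetR-MYBTA at 21.8 to 22.8, TetR stands above both other lines at Ep300, and the lines overlap at all other genes.

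Summed over the 9 genes, the share was 98.4 ± 8.27 in WT, 94.1 ± 4.03 in TetR and 93.6 ± 9.41 in TetR-MYBTA (SD, n = 3 each). The ratio of TetR-MYBTA to the other 6 libraries was 0.972, within the spread of the libraries, and it crossed 1 with a 10 kb window, with the own chromosome's peaks as denominator (1.02 each) and without TetR-MYBTA replicate 2 (1.01). The median log2 ratio was -0.11 for the 9 genes, -0.15 for the 78 related genes and -0.07 for all 20443 genes tested. Means were higher in TetR-MYBTA for 3 of the 9, against 42.8% of all genes. No gene of 20443 passed an adjusted p of 0.05 in the exact permutation test in any of the 4 comparisons. Unadjusted p-values under 0.05 were reached by 23.4% of all genes and by 1 of the 9 (Psip1) against the other 6, and cannot be reached with 3 against 3.

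Chromosome shares differed between lines and moved some of these values. Chromosome 19, which carries Men1, held 1.90 ± 0.0156% of TetR-MYBTA peaks and 2.51 ± 0.00600% of TetR peaks (SD, n = 3 each), while chromosome 11 held more in TetR-MYBTA, as given above. Taken per 100000 peaks of its own chromosome, Men1 stood at 526 ± 64.1 in TetR-MYBTA and 410 ± 12.1 in TetR, without overlap and in the opposite direction to its share of all peaks. Med1 overlapped between these lines in its share of all peaks, at a ratio of 0.985. Per 100000 peaks of chromosome 11, Med1 stood at 102 ± 13.1 in TetR-MYBTA and 138 ± 15.6 in TetR, a ratio of 0.742 without overlap (SD, n = 3 each). The part of the larger chromosome 11 count of TetR-MYBTA in this ratio was not tested. On this scale 5 of the 9 genes were called in TetR-MYBTA against TetR, Ep300 and Med1 lower and Men1, Psip1 and Kat6a higher, against 30% of all genes. Psip1 kept its call against the other 6 libraries, at a ratio of 1.18.

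Of the 78 related genes, 0 had a higher and 4 a lower share in TetR-MYBTA than in the other 6 libraries without overlap. Mediator subunit genes were 3 of them: Med8 at 5.5 ± 1.36 against 9.96 ± 1.20, Med21 at 5.65 ± 0.873 against 9.59 ± 1.65, and Med18 at 7.35 ± 0.910 against 9.91 ± 0.532 (SD, n = 3 and 6). The exact permutation p was 0.0119 and the adjusted p 0.112 for each. The other was Taf2, a TFIID subunit gene, at 10.5 ± 1.55 against 15.4 ± 2.75 (exact permutation p = 0.0238, adjusted p = 0.150). A count of 4 of 78 is below the 10.2% of all genes. Across the 9 libraries, the genes whose share was most like the summed share of the coactivator genes were H2-M5, Tmem123 and Gltp, with Pearson r of 0.957, 0.948 and 0.923 among 10404 genes compared. All shares of a library are divided by the same list length, and 9 of the 10404 genes had an r over 0.9.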

How the data were processed

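Titles put the 9 ATAC-seq libraries into 3 lines of 3. The submitters' processing notes name HOMER 4.11, deepTools 3.5.5, Trim Galore 0.6.10, Picard, Bowtie2 and FastQC, with the build mm10. HOMER called peaks on each library alone, at a false discovery rate of 0.001, 4-fold over the surrounding 10 kb with a Poisson p-value of 0.0001 and at most 1 tag per position, per the file headers. Tn5 shifting and blacklist filtering are not stated. The authors deposited start and end positions in base pairs and a score that is 1 in every row, so peaks were used as present or absent, with row blocks averaged for place. Genes came from RefSeq (GRCm38.p6, the coordinates of mm10), which gave no exons. The plan allowed places as a description by row order; ranking regions with a peak in all 9 libraries, testing those places, and ending equal lists at whole blocks were added after the data were seen.

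Mean shares were tested by exact permutation, two-sided (84 splits for 3 against 6, 20 for 3 against 3) with Benjamini-Hochberg adjustment over all genes or regions, and a gene or region was called where the groups did not overlap. The members and gene lists were chosen with earlier results of these data known. All 9 members were named, with coordinates for gene-end regions and regions called by presence. Related genes were named where called at a gene end or, at most 4 per direction, by share, and the most alike were the 3 with the highest Pearson r, over 200 kb away and with a mean of at least 5 peaks. All 78 related genes matched. Same-numbered libraries did not deviate together (correlations -0.06 to 0.09 in 9 pairs), so numbers were not used as pairs. Alternatives were a 10 kb window, lists cut to equal length or to their upper 50%, the own chromosome or peaks near genes as denominator, a mean of at least 2 peaks, gene ends of 2.5 kb, peaks up to 200 bp apart merged, presence in at least 2 of 3 libraries, no absent-side peak within 1 kb, a replicate block and leaving out each library. Counting was tested on simulated data. The tools were Python 3.11.15 with matplotlib 3.10.9, scipy 1.17.1, numpy 2.4.6 and pandas 2.3.3.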

Additional observations from a re-analysis of the deposited data

How the results depend on the processing

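Peak lists hold no tag counts per peak, so depth limits every presence: a region without a peak was not called, which does not show that it was closed. Leaving out a library can add non-overlap calls but not remove them, by construction. The summed ratio lay near 1 and crossed it against the other 6 with 10 kb (1.02), per own chromosome (1.02) and per peaks near genes (1.02). It crossed 1 against TetR with the upper 50% (1.06), 10 kb (1.04), own chromosome (1.03), whole blocks (1.01) and peaks near genes (1.04), and against WT with 10 kb (1.01), own chromosome (1.01) and peaks near genes (1.00).

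In the upper 50% of each list, 3 of 9 genes kept a gene-end peak in all libraries and 1 (Crebbp) was called. The summed ratio there was 0.872 against the other 6 libraries, 0.741 for TetR-MYBTA against WT and 0.700 for TetR against WT (0.865 with equal length, both ways), and the Ep300 log2 ratio of TetR against WT turned to -0.47. Genes without overlap, TetR-MYBTA against the other 6, were 1, and 0 with equal length, upper 50% or 10 kb. Equal lists ending at whole blocks called Ep300 in place of Psip1, at a ratio of 0.683. Of all genes, 14.6% were without overlap in either direction, and 9.15% with equal length, 13.4% in the upper 50%, 8.38% with 10 kb and 15% with whole blocks. Against TetR, members without overlap were 2, and 0 with equal length, 1 with whole blocks (Ep300, lower) or 10 kb (Men1, higher) and 5 per own chromosome. The upper 50% called Psip1 higher and Kat6a lower. The share of all genes was 28%, and 19.5% with equal length, 27.1% with whole blocks and 20.3% with 10 kb. It was 30% per own chromosome and 26% in the upper 50%. For TetR against WT, members without overlap were 1 (Ep300, higher), and 6 in the upper 50%, all lower. With 10 kb they were 3 (Taf12 higher, Men1 and Kat2a lower), and per own chromosome 2, both higher. Either kind of equal length called Kat2a, lower, in place of Ep300. The share of all genes was 20%, and 24.3% in the upper 50%, 15.5% with 10 kb and 20.5% per own chromosome. With equal length it was 13.2%, and 19.8% with whole blocks. For TetR-MYBTA against WT, members without overlap were 1 (Psip1, higher), and 0 with equal length or 10 kb. They were 4 in the upper 50% and 2 with whole blocks, all lower, and 2 per own chromosome (Psip1 higher, Kat2a lower). The share of all genes was 27.9%, and 20.1% with equal length, 17.1% with 10 kb and 28.9% in the upper 50%. With whole blocks it was 31.7%, and 30% per own chromosome. By share, the 5 calls of Psip1 and Ep300 were all lost with equal length and with 10 kb, 4 with whole blocks (all but Ep300 against TetR) and 4 with the upper 50% (all but Psip1 against TetR). The cause was not tested.

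With the replicate block, genes without overlap within every number were 3 for TetR against WT (34% of all genes) and 3 for TetR-MYBTA against WT (44.2%). The smallest adjusted p was 0.213 against the other 6, and the summed ratio was 0.975. The check of the pairing gave no pair over 0.1.

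Regions called by presence were 1 against TetR, missing from TetR-MYBTA. There were 2 with equal length or whole blocks, both with a peak in TetR-MYBTA and none in TetR, 2 in the upper 50%, 1 each way, 2 with merging and 8 with 2 of 3 libraries, all missing from TetR-MYBTA, and 0 with no peak within 1 kb. For TetR against WT there was 1, missing from TetR, then 3 with equal length and 4 with whole blocks, all missing from TetR, 5 in the upper 50% (4 missing, 1 gained), 10 with 2 of 3 (2 missing, 8 gained) and 0 with no peak within 1 kb. For TetR-MYBTA against WT they were 0, and 4 in the upper 50% and 1 with merging, all missing from TetR-MYBTA, and 6 with 2 of 3 (5 missing, 1 gained). Against the other 6 they were 0, and 1, missing from TetR-MYBTA, with 2 of 3.

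Leaving out 1 library gave 1 to 3 genes without overlap for TetR against WT and for TetR-MYBTA against WT, and 2 to 4 against TetR (4 without TetR-MYBTA replicate 2). The share over all genes rose too. Without WT replicate 1 it was 30% for TetR against WT (20% with all libraries) and 36.7% for TetR-MYBTA against WT (27.9%). The summed ratio of TetR against WT ran from 0.926 to 1.00, the highest without WT replicate 1. That of TetR-MYBTA against TetR ran from 0.938 to 1.03 (above 1 without TetR replicate 1 or TetR-MYBTA replicate 1 or 2) and that against the other 6 from 0.917 to 1.01 (above 1 without TetR-MYBTA replicate 2). Regions called ran from 0 to 1 against the other 6, 1 to 6 against TetR and 1 to 7 for TetR against WT (both highest without TetR replicate 3), and 0 to 4 for TetR-MYBTA against WT (highest without WT replicate 2). Regions without overlap in place ran from 3 to 8 against the other 6 and 12 to 20 for TetR-MYBTA against WT.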
